A study of Homo sapiens with 12 samples.

Results

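The genes that encode the LC3 and GABARAP proteins, together with the genes of 3 cargo receptors that bind them, were followed through RNA-seq of human stem cell-derived motor neuron cultures exposed to the organochlorine pesticide cis-chlordane. The genes were taken by name from the table of 28278 gene symbols: 10 rows, of which 7 encode LC3 or GABARAP proteins (MAP1LC3A, MAP1LC3B, MAP1LC3B2, MAP1LC3C, GABARAP, GABARAPL1 and GABARAPL2) and 3 encode receptors (SQSTM1, NBR1 and TAX1BP1). All 10 were present in the table and all 10 passed the filter on low counts in every comparison. MAP1LC3C passed it in the GFP-positive treatment comparison only through the treated libraries, where it is high.

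LC3 and GABARAP are small ubiquitin-like proteins that are joined to a lipid of the growing autophagosome membrane, the double membrane that encloses material on its way to the lysosome. Cargo receptors such as p62, the product of SQSTM1, bind ubiquitin on the cargo with one end and LC3 or GABARAP with the other, and are themselves degraded with the cargo. Long-lived neurons rely on this route to remove aggregated proteins and damaged organelles, and p62 is a frequent component of the inclusions seen in amyotrophic lateral sclerosis.

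The cells came from WA09-Islet1-GFP, a wild-type human embryonic stem cell line in which GFP appears with the motor neuron transcription factor Islet1. Stored motor neurons were thawed, grown, and given either DMSO vehicle or cis-chlordane for 16 hours, and were then separated by FACS into GFP-positive and GFP-negative cells. There were 12 libraries in 4 groups (control and treated, GFP-positive and GFP-negative), with 3 replicates in each group. The sample labels give the dose as 10 µM, and the methods of the study name another concentration, so the dose behind these values is not certain. The treated samples also carry the word "untreated" in their titles, and the treatment entry of each sample set its group. A biological replicate was a separate thaw of stored cells of a single line, so that the spread between replicates covers thaws and not genetic backgrounds, and GFP-negative means low for the Islet1 reporter and not a defined cell type.

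Libraries held 23414935 to 38347050 counts. The motor neuron markers ISL1, MNX1, CHAT, SLC18A3, SLC5A7 and LHX3 summed to 1166 to 1377 CPM (read counts scaled to a common library total) in control GFP-positive libraries. In control GFP-negative libraries the sum was 192 to 215 CPM, in the direction of the sort. SLC18A3 alone held 776, 922 and 675 CPM of the control GFP-positive sums. Between the sort fractions, 5 of the 6 markers were called higher and 1 lower in GFP-positive cells of control cultures. In treated cultures 4 were called higher and 1 lower. After treatment the sums were 281 to 429 and 58.5 to 79.2 CPM, with 5 of the 6 markers called lower in GFP-positive and 4 of the 6 in GFP-negative cells. Pan-neuronal markers also summed lower after treatment, at 5345 to 7127 against 11436 to 14939 CPM in GFP-positive cells and 3527 to 4497 against 6093 to 6753 CPM in GFP-negative cells. Of these 5 markers, 3 were called lower and 1 higher in GFP-positive cells, and 4 lower and 1 higher in GFP-negative cells. Mesenchymal markers summed to 260.3 to 326 CPM in control and 50.2 to 82.0 CPM in treated GFP-positive libraries. Endothelial markers summed higher after treatment, at 7.45 to 9.87 against 1.56 to 2.37 CPM in GFP-positive and 87.0 to 128 against 10.9 to 28.3 CPM in GFP-negative libraries. The endothelial genes did not move together. In GFP-positive cells 1 of the 2 tested was called higher and 1 lower. In GFP-negative cells 1 of the 3 tested was called higher and 0 lower, with a median log2 fold change of -0.42. Cycling-cell markers summed to 427 to 555 CPM in control GFP-negative libraries and to at most 182 CPM in every other library. In bulk samples, fewer cells of a type and less RNA per cell cannot be told apart, and the part of these marker changes in the results that follow was not tested. Control GFP-negative replicate 3 stood apart from its group: its log expression correlated at 0.946 and 0.963 with replicates 1 and 2, against 0.978 or more for every other pair within a group, and it alone held more than 1 CPM of summed microglia or macrophage markers (10.5 CPM, against at most 0.605). The counts of members called, and the members' treatment changes in GFP-negative cells, are therefore also given without it, and CPM levels are given by library.

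MAP1LC3B and MAP1LC3B2 are near-identical in their coding sequence, and the bases that separate them decide how far their counts can be told apart. Of 375 coding bases without the stop codon, 373 were shared (99.5%), and the differences were C30G and A338G, with positions counted from 1 at the A of the start codon and the MAP1LC3B base given first. The stretches around both positions are shown 5′ to 3′ from GENCODE 44 transcripts on hg38, bases 1 to 60 and then bases 309 to 368, with the differing base in capitals.
MAP1LC3B: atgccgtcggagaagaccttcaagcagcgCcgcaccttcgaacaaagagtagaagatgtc
MAP1LC3B2: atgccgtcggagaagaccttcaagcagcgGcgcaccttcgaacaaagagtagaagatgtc
MAP1LC3B: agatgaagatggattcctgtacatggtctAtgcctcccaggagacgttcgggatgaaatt
MAP1LC3B2: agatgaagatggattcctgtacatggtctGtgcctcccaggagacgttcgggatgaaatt
A read of 100 bases placed within these transcripts is the same for both genes at 276 start positions, which is 13.5% of the 2048 positions of MAP1LC3B and 38.4% of the 719 positions of MAP1LC3B2. The remaining positions belong to the untranslated ends or cover a differing base. The counts of MAP1LC3B2 came to 3.65 ± 0.841% of those of MAP1LC3B in control GFP-positive cells (SD, n = 3), 3.59 ± 0.138% in treated GFP-positive cells, 3.67 ± 0.755% in control GFP-negative cells and 3.93 ± 0.834% in treated GFP-negative cells. The ratio was thus almost the same in every group, and the values of MAP1LC3B2 are uncertain for that reason. MAP1LC3B lies on chromosome 16 (chr16:87383953-87404779, plus strand) and MAP1LC3B2 on chromosome 12 (chr12:116548105-116576606, plus strand).

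Other members share bases with neighbouring genes. SQSTM1 (chr5:179806398-179838078, plus strand) overlaps MRNIP on the opposite strand over 1390 of its 2741 possible 100-base reads (50.7%). The libraries kept strand, but the strand setting used for counting is not given in the sources used here. MRNIP stood at 13.7 to 26.6 CPM in all 12 libraries, with 21.2 to 26.6 CPM in control and 23.8 to 25.9 CPM in treated GFP-positive cells, far below SQSTM1 itself. GABARAP (chr17:7240008-7242449, minus strand) shares 593 of 1220 reads (48.6%) with an overlapping gene model of the same strand and 114 (9.34%) with another on the opposite strand, neither of them among the table's symbols. How such reads were assigned is not known here, so the level of GABARAP per length, and its share of the family, are uncertain. MAP1LC3A (chr20:34546854-34560345, plus strand), GABARAPL1 (chr12:10212458-10223128, plus strand), GABARAPL2 (chr16:75566375-75577881, plus strand) and NBR1 (chr17:43170481-43211689, plus strand) shared no 100-base stretch with another gene's transcripts, and MAP1LC3C (chr1:241995490-241999098, minus strand) and TAX1BP1 (chr7:27739331-27844564, plus strand) shared 6 and 9 positions.

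To ask how the pesticide altered these transcripts in motor neurons, treated and control GFP-positive libraries were compared with edgeR's quasi-likelihood test, fitted on all genes and adjusted by the Benjamini-Hochberg method. A gene was called at an adjusted p under 0.05 and counted as a DEG when its change was also at least 2-fold. MAP1LC3B, the LC3 gene most used as a mark of autophagosomes, rose 5.80-fold in GFP-positive cells, and SQSTM1 rose 3.57-fold. GABARAPL1, TAX1BP1 and NBR1 rose about 2-fold, MAP1LC3C rose 9.11-fold from a very low level, and MAP1LC3A, GABARAP and GABARAPL2 were not called. In all, 7 of 10 members were called higher and 0 lower, where 26.5% of the 15333 genes tested were called higher and 24.4% lower. Without MAP1LC3C, 6 of 9 members were called. Of the 10 members, 6 were DEGs, against 12.8% of all genes that were DEGs in that direction. MAP1LC3C, which passed the filter only through the treated libraries, is among these DEGs and in the median that follows. The median log2 fold change was 1.08 over the 10 members and 0.03 over all genes.

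Among the LC3 genes, MAP1LC3B stood at 285, 270.1 and 299 CPM in the 3 control GFP-positive libraries and at 1462, 1542 and 1728 CPM in the treated ones. Every treated library was several times above every control library. The log2 fold change was 2.54 (SE 0.16, 95% interval 2.20 to 2.87), with an adjusted p of 5.2e-15 in edgeR's quasi-likelihood test. MAP1LC3B2 stood at 8.61, 12.4 and 9.92 CPM in control and 50.2, 56.8 and 63.1 CPM in treated libraries, a log2 fold change of 2.52 (SE 0.19, adjusted p = 4.8e-13 by edgeR). With the counts of both genes summed, the log2 fold change was 2.54 (adjusted p = 5.2e-15 by edgeR), and 6 of 9 rows were then called.

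MAP1LC3A, which encodes a form of LC3 prominent in brain, behaved otherwise. It stood at 134, 135 and 91.7 CPM in control and at 119, 129 and 106 CPM in treated GFP-positive libraries, so the groups overlapped. The log2 fold change was 0.04 (SE 0.17, 95% interval -0.30 to 0.38, adjusted p = 0.86 by edgeR), and its sign changed with some settings. This interval leaves out a 2-fold change in either direction. With the trend of fold change on GC content removed, MAP1LC3A, whose transcript is 65.7% G and C, was called higher at 0.57 (adjusted p = 0.0010 by edgeR).

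MAP1LC3C was the least abundant member, with 11, 22 and 6 counts in the control and 142, 146 and 96 counts in the treated GFP-positive libraries. On the CPM scale these were 0.410, 0.637 and 0.192 against 4.26, 4.18 and 2.54. The groups did not overlap, and the log2 fold change was 3.19 (SE 0.39, 95% interval 2.39 to 3.98, adjusted p = 2.2e-08 by edgeR). The proportional change was large, while the treated level per length stayed below that of every other member.

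**Figure D1:**
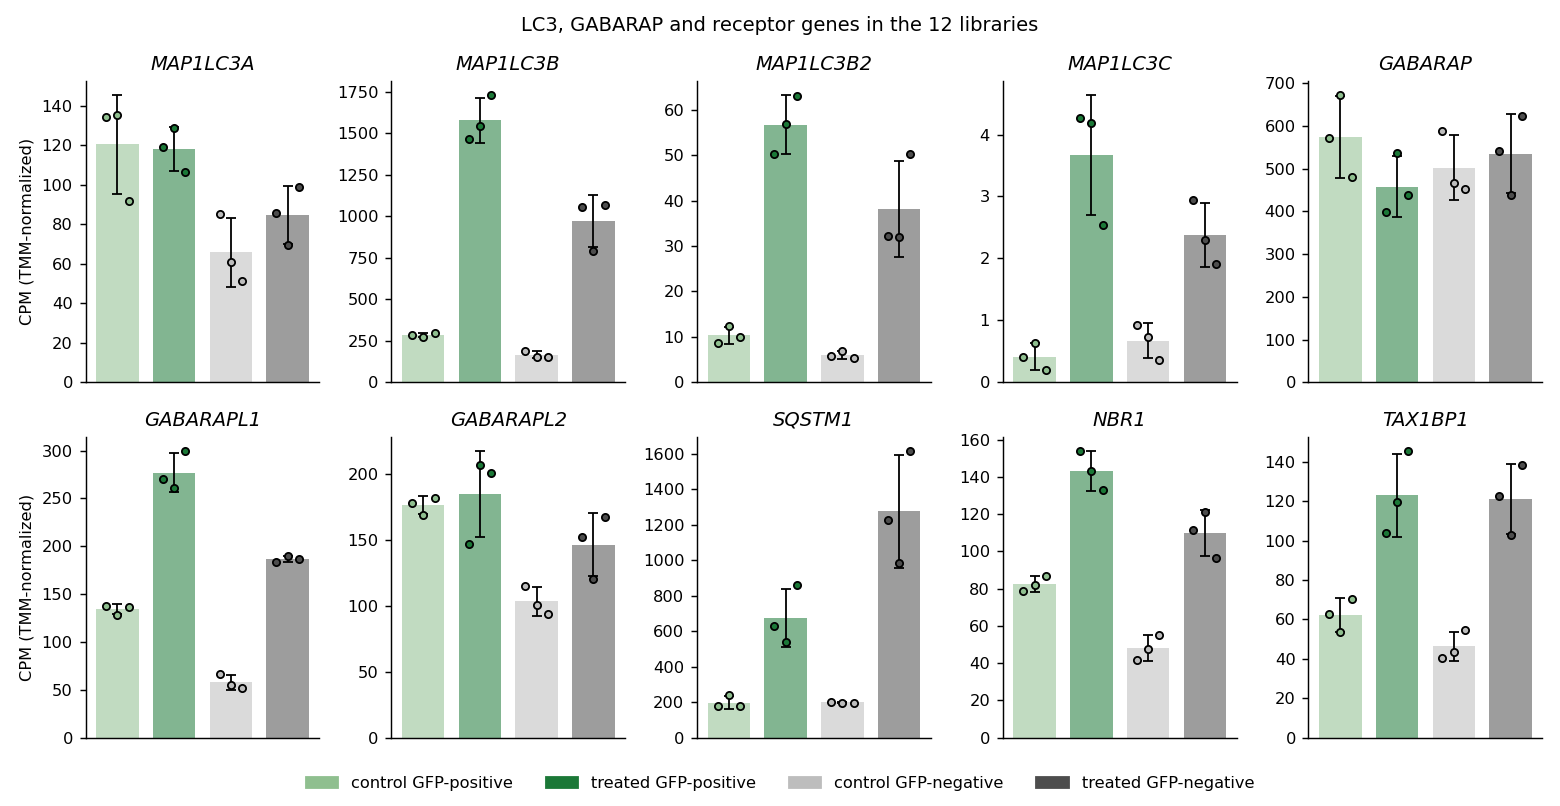
CPM of each of the 10 genes in the 4 groups, with bars for the mean of 3 replicates, error bars for 1 SD and points for single libraries. Each panel has its own axis from 0. Treated libraries lie above control libraries in both sort fractions for MAP1LC3B, MAP1LC3B2, MAP1LC3C, GABARAPL1, SQSTM1, NBR1 and TAX1BP1, while the points of MAP1LC3A and GABARAP overlap.

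Within the GABARAP branch, whose proteins act mainly in the later steps of autophagosome formation and in fusion with lysosomes, only GABARAPL1 was called in GFP-positive cells. It stood at 138, 128 and 137 CPM in control and 270.1, 261 and 299.6 CPM in treated libraries. No libraries overlapped, and the log2 fold change was 1.11 (SE 0.16, adjusted p = 2.8e-07 by edgeR), or 2.16-fold. GABARAP itself, by length the most abundant of the family in control cells, stood at 572, 672 and 481 CPM in control and 398, 537 and 439 CPM in treated libraries. The log2 fold change of GABARAP was -0.26 (95% interval -0.59 to 0.07, adjusted p = 0.19 by edgeR). GABARAPL2 stood at 178, 169 and 182 CPM and then at 147, 206 and 200.4 CPM, with overlapping groups and a log2 fold change of 0.13 (95% interval -0.19 to 0.46, adjusted p = 0.51 by edgeR).

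All 3 receptor genes were called higher in GFP-positive cells. SQSTM1 stood at 179, 239 and 177 CPM in control and 628, 540.2 and 859 CPM in treated libraries, a log2 fold change of 1.84 (SE 0.18, 95% interval 1.47 to 2.20, adjusted p = 1.3e-10 by edgeR). The lowest treated library held more than any control library, although the treated libraries themselves spread widely. NBR1 encodes a receptor that works with p62 in gathering ubiquitinated proteins, and stood at 78.5, 82.2 and 87.0 CPM in control and 154, 143 and 133 CPM in treated libraries. Its log2 fold change was 0.86 (SE 0.16, adjusted p = 2.4e-05 by edgeR), below the 2-fold limit. TAX1BP1, a receptor that also takes part in the clearance of protein aggregates, stood at 62.7, 53.4 and 70.4 CPM in control and 104, 119 and 145 CPM in treated libraries. The log2 fold change of TAX1BP1 was 1.05 (SE 0.17, adjusted p = 3.7e-06 by edgeR), or 2.07-fold, close to the 2-fold limit. It was a DEG in 12 of 16 alternative settings, and stood at 0.58 with the GC trend removed.

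The same contrast in GFP-negative cells asked whether the change was limited to cells with the reporter. Each of the 7 genes called higher in GFP-positive cells was also called higher here, and 0 members lower, where 15.3% of 15513 genes were called higher and 16.2% lower. All 7 were DEGs, against 8.59% of all genes that were DEGs in that direction. The median log2 fold change was 1.52 over the members and -0.01 over all genes. Without control GFP-negative replicate 3, 7 members were again called and 7 were DEGs, with log2 fold changes of 2.49 for MAP1LC3B, 2.57 for MAP1LC3B2, 1.597 for GABARAPL1, 1.28 for NBR1 and 1.503 for TAX1BP1, while GABARAPL2 stood at 0.42 and MAP1LC3A at 0.20, neither called. Of all 15859 genes in that fit, 2776 were called higher and 1624 were DEGs in that direction. The treatment comparisons of the 2 fractions use separate libraries of the same cultures.

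SQSTM1 changed most among the receptors in these cells, from 204, 198 and 194 CPM in control to 1229, 986 and 1617 CPM in treated GFP-negative libraries. The control libraries lay close together and every treated library was several times higher, with a log2 fold change of 2.66 (SE 0.20, 95% interval 2.23 to 3.10, adjusted p = 2.5e-05 by edgeR), or 6.33-fold. Without control replicate 3 it was 2.64. NBR1 went from 41.7, 47.5 and 55.2 CPM to 111, 121 and 96.7 CPM, 2.25-fold (adjusted p = 9.3e-04 by edgeR). TAX1BP1 went from 40.6, 43.4 and 54.8 CPM to 122, 103 and 138 CPM, 2.58-fold (adjusted p = 5.7e-04 by edgeR). Neither gene had overlapping libraries.

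MAP1LC3B rose in GFP-negative cells by the same log2 amount as in GFP-positive cells, 2.54 (SE 0.18, 95% interval 2.13 to 2.94, adjusted p = 2.3e-05 by edgeR), from 188, 153 and 153 CPM to 1055, 791 and 1067 CPM. MAP1LC3B2 rose by 2.65 (SE 0.24, adjusted p = 8.0e-05 by edgeR), from 5.75, 6.90 and 5.28 CPM to 32.2, 31.9 and 50.2 CPM. GABARAPL1 rose by 1.67 on the log2 scale (SE 0.16, adjusted p = 9.3e-05 by edgeR), from 66.5, 55.1 and 51.6 CPM to 184, 190.3 and 186 CPM. These 3 genes had no overlap between treated and control libraries.

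MAP1LC3C rose by 1.78 on the log2 scale in GFP-negative cells (SE 0.42, 95% interval 0.85 to 2.72, adjusted p = 0.0098 by edgeR), from 0.920, 0.734 and 0.360 CPM to 2.94, 2.29 and 1.91 CPM. The control libraries held 28, 25 and 9 counts, the lowest of them in replicate 3. Without control replicate 3 the log2 change was 1.497 (adjusted p = 0.012 by edgeR), and without treated replicate 1 it was 1.60 and no longer called (adjusted p = 0.053 by edgeR). GABARAPL2 stood at 115, 101 and 93.9 CPM in control and 152, 120.4 and 167 CPM in treated GFP-negative libraries. Its groups did not overlap, yet the log2 fold change of 0.48 (SE 0.17) narrowly missed the threshold (adjusted p = 0.056 by edgeR). It was called in 4 of 16 alternative settings.

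MAP1LC3A stood at 85.1, 60.7 and 51.4 CPM in control and 85.9, 69.6 and 98.9 CPM in treated GFP-negative libraries, a log2 fold change of 0.35 (95% interval -0.14 to 0.83, adjusted p = 0.25 by edgeR). With the GC trend removed it was called at 0.67 (adjusted p = 0.013 by edgeR). GABARAP stood at 589, 466 and 452 CPM and then at 542, 439 and 624 CPM, a log2 fold change of 0.07 (95% interval -0.33 to 0.47, adjusted p = 0.80 by edgeR). It was -0.0026 without control replicate 3. Members whose treated and control libraries did not overlap and were higher with treatment numbered 8 in GFP-negative and 7 in GFP-positive cells, where 24.0% and 26.9% of all genes did the same. Both counts include MAP1LC3C, which passed the GFP-positive filter only through the treated libraries.

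**Figure D2:**
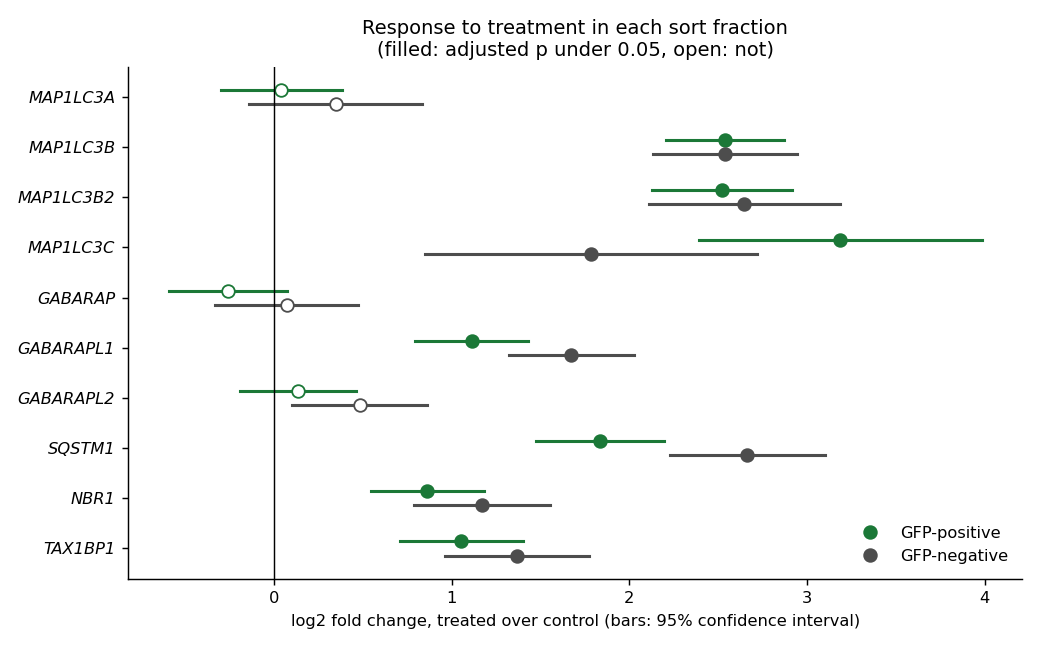
Log2 fold change of treated against control for each member, with GFP-positive cells in green, GFP-negative cells in grey, bars for the 95% interval of edgeR's fit, and filled points for an adjusted p under 0.05. The interval of MAP1LC3B is centred at 2.54 in both fractions, SQSTM1 lies at 1.84 and 2.66, and the open points are MAP1LC3A, GABARAP and GABARAPL2.

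Levels of different genes were compared per length, as CPM divided by the length in kilobases of the canonical transcript (RPKM). In control GFP-positive cells GABARAP led with 436 ± 72.5 RPKM (SD, n = 3), followed by GABARAPL2 at 181 ± 6.74 RPKM. MAP1LC3B (133 ± 6.73 RPKM) and MAP1LC3A (125 ± 25.8 RPKM) came next and did not differ beyond the spread of their libraries. GABARAPL1 (71.4 ± 2.86 RPKM) and SQSTM1 (69.9 ± 12.2 RPKM) likewise overlapped, as did TAX1BP1 (18.2 ± 2.49 RPKM) and NBR1 (17.9 ± 0.922 RPKM). MAP1LC3B2 (12.6 ± 2.37 RPKM) and MAP1LC3C (0.342 ± 0.184 RPKM) were the lowest.

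Treatment changed this order. In treated GFP-positive cells MAP1LC3B led with 735 ± 63.5 RPKM, above GABARAP (347 ± 54.1 RPKM) in every library. SQSTM1 reached 238 ± 57.9 RPKM, and overlapped in the libraries' spread with GABARAP above it and with GABARAPL2 (189 ± 33.6 RPKM) below it. Within each treated GFP-positive library, GABARAP was above SQSTM1 by this length. In treated GFP-negative cells MAP1LC3B (452 ± 72.7 RPKM), SQSTM1 (449.7 ± 112 RPKM) and GABARAP (406 ± 70.4 RPKM) overlapped at the top. Within each of these libraries, GABARAP was below both MAP1LC3B and SQSTM1 by this length. In control GFP-negative cells GABARAP (381 ± 57.4 RPKM) had led, with SQSTM1 at 70.0 ± 1.73 RPKM and MAP1LC3B at 76.7 ± 9.49 RPKM. NBR1 stayed below TAX1BP1 by mean RPKM in all 4 groups, with overlapping libraries in all groups but treated GFP-negative. Within each control GFP-negative library, NBR1 was also below TAX1BP1.

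The 7 LC3 and GABARAP genes together summed to 973, 1033 and 870.2 RPKM in control GFP-positive libraries and to 1466, 1683 and 1692 RPKM after treatment. In GFP-negative cells the sums were 784, 629 and 598 RPKM in control and 1287, 1039 and 1406 RPKM in treated libraries. All treated sums were above all control sums of the same fraction. Within that sum, MAP1LC3B made up 13.7%, 12.2% and 16.0% in control and 46.5%, 42.7% and 47.6% in treated GFP-positive libraries, and 11.2%, 11.3% and 11.9% against 38.2%, 35.5% and 35.3% in GFP-negative libraries. GABARAP made up 45.3 ± 3.77% in control and 21.5 ± 2.40% in treated GFP-positive cells (SD, n = 3), and 57.0%, 56.1% and 57.3% against 31.9%, 32.0% and 33.7% in GFP-negative libraries. By canonical length GABARAP thus held the largest share in every control library and MAP1LC3B in every treated library, an order that turned with the length in treated GFP-negative cells. The treatment difference of GABARAP itself was not called.

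Shares depend on the length used and on each other, since they sum to 100 in each library. With the union of all exons as the length, MAP1LC3B made up 10.4% and 38.6% in GFP-positive control and treated cells, and GABARAP 53.1% and 28.8%. By the same length in GFP-negative cells MAP1LC3B made up 8.22% and 29.3% and GABARAP 64.5% and 41.7%, so that GABARAP stayed above MAP1LC3B in all 3 treated libraries. The shares of GABARAPL2 were 19.0 ± 2.33% and 11.7 ± 1.22% in GFP-positive control and treated cells, and those of MAP1LC3A 12.9 ± 1.78% and 7.64 ± 0.993%. GABARAPL1 made up 7.49 ± 0.880% and 9.15 ± 0.799%. MAP1LC3B2 and MAP1LC3C held at most 4.29 ± 0.238% and 0.190% on average in any group.

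**Figure D3:**
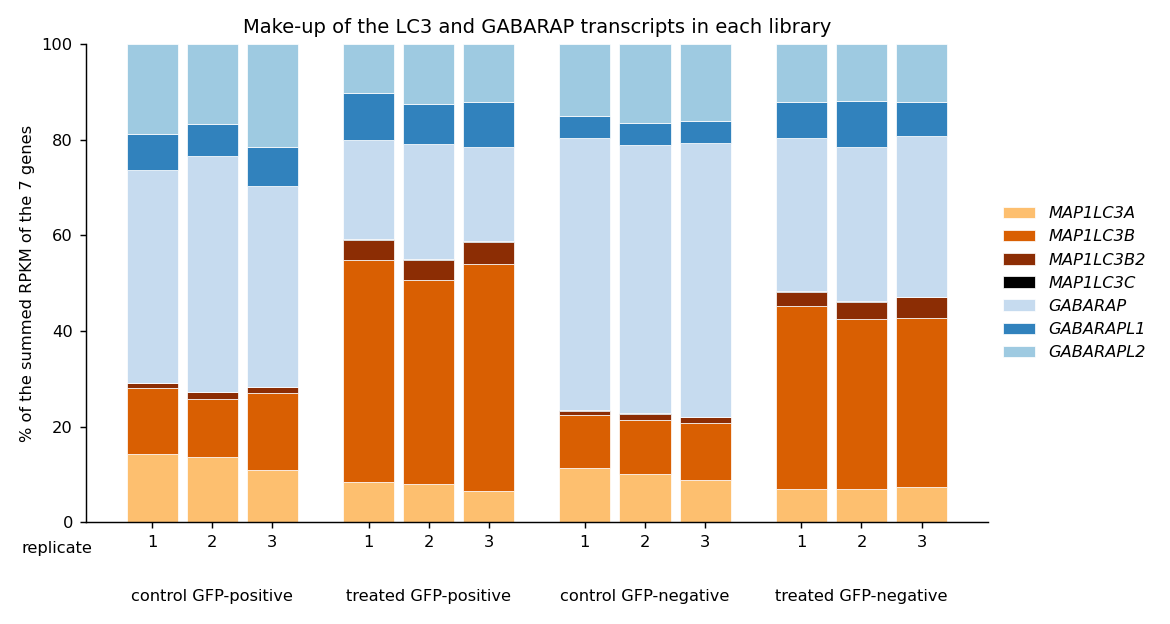
Percent of the summed RPKM of the 7 LC3 and GABARAP genes in each of the 12 libraries, as stacked bars that reach 100. MAP1LC3B makes up 12.2 to 16.0% in control and 42.7 to 47.6% in treated GFP-positive libraries, with the reverse movement in GABARAP.

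The sort fractions were compared within each treatment to ask where these genes were higher. In control cultures 6 of 10 members were called higher in GFP-positive than in GFP-negative cells, where 17.1% of 15404 genes were called higher and 23.1% lower, and none of the members was called lower. GABARAPL1 differed most and was the only DEG, 2.17-fold higher in GFP-positive cells (log2 1.12, SE 0.14, adjusted p = 2.0e-04 by edgeR), against a background of 7.47% DEGs in that direction. MAP1LC3A was 1.71-fold higher (adjusted p = 0.016 by edgeR), MAP1LC3B 1.61-fold (adjusted p = 0.0034 by edgeR), MAP1LC3B2 1.61-fold (adjusted p = 0.035 by edgeR), GABARAPL2 1.59-fold (adjusted p = 0.0030 by edgeR) and NBR1 1.59-fold (adjusted p = 0.0077 by edgeR). The libraries of these 6 genes did not overlap, which 29.1% of all genes also showed in that direction. GABARAP (log2 0.09, 95% interval -0.28 to 0.46), SQSTM1 (-0.11, 95% interval -0.44 to 0.23), TAX1BP1 (0.32, 95% interval -0.09 to 0.72) and MAP1LC3C (-0.80, 95% interval -2.01 to 0.41) were not called. Without control GFP-negative replicate 3, 7 members were called higher, with TAX1BP1 added at 0.48 (adjusted p = 0.044 by edgeR). Over all genes 3468 of 15674 were called higher in that fit, against 2638 of 15404 in the main fit. MAP1LC3A and MAP1LC3B2 each lost their call in 3 of the 6 fits that left out a library. MAP1LC3A was 0.69, 0.71 and 0.73 without GFP-positive replicate 1 or 2 or GFP-negative replicate 2 (adjusted p = 0.067, 0.069 and 0.059 by edgeR). MAP1LC3B2 was 0.56, 0.72 and 0.82 without GFP-positive replicate 2 or 3 or GFP-negative replicate 2 (adjusted p = 0.12, 0.081 and 0.053 by edgeR).

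In treated cultures 5 members were called higher and 1 lower in GFP-positive cells, where 24.9% of 15416 genes were called higher and 24.9% lower. Scaled by library size alone, 4931 genes were called higher and 3045 lower, against 3832 and 3846 in the main fit. The member called lower was SQSTM1, at a log2 difference of -0.89 (SE 0.20, 95% interval -1.32 to -0.46, adjusted p = 0.0028 by edgeR): GFP-negative cells held 1.85-fold more of its transcript as CPM. MAP1LC3B was 1.65-fold higher in GFP-positive cells (log2 0.73, adjusted p = 0.0016 by edgeR) and GABARAPL1 1.51-fold (adjusted p = 0.0028 by edgeR). MAP1LC3A (log2 0.50, adjusted p = 0.017 by edgeR), MAP1LC3B2 (0.60, adjusted p = 0.020 by edgeR) and NBR1 (0.40, adjusted p = 0.037 by edgeR) were higher by less. None was a DEG, where 10.0% of all genes were DEGs in the higher and 13.7% in the lower direction.

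The remaining 4 genes were not called in the treated sort comparison without a block. TAX1BP1 stood at 104, 119 and 145 CPM in GFP-positive and 122, 103 and 138 CPM in GFP-negative treated cells, overlapping entirely. Fractions with the same replicate number deviated together and were taken as sorted from the same culture, so the comparison was also made within cultures, with the culture as a block, by which 8 members and 59.3% of all genes were called. MAP1LC3C was then called at 0.63 (adjusted p = 0.026 by edgeR) in place of 0.64 (adjusted p = 0.086), and GABARAPL2 at 0.35 (adjusted p = 0.046 by edgeR) in place of 0.36 (adjusted p = 0.094). In the fit with no block, leaving out treated GFP-positive replicate 2 or treated GFP-negative replicate 1 left only 3 members called, 2 higher and 1 lower. Over all genes 7000 of 15761 and 6063 of 15764 were called in these 2 fits.

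Whether the response to cis-chlordane differed between fractions was tested directly, as the treatment change in GFP-positive cells minus that in GFP-negative cells. Without a block, 0 of 10 members were called by edgeR's quasi-likelihood test, where 2.19% of 16226 genes were called. An unadjusted p under 0.05 was found for 3 members (MAP1LC3C, GABARAPL1 and SQSTM1) and for 2701 of the 16226 genes. By DESeq2, 1 member and 789 of all genes were called. With the culture as a block, 2 members were called, where 7.79% of all genes were: SQSTM1 at -0.90 (SE 0.17, adjusted p = 0.0070 by edgeR) and GABARAPL1 at -0.66 (SE 0.17, adjusted p = 0.032 by edgeR). Both rose more in GFP-negative cells. Without the block their differences were of the same size, -0.92 (95% interval -1.51 to -0.33, adjusted p = 0.11 by edgeR) for SQSTM1 and -0.65 (95% interval -1.05 to -0.25, adjusted p = 0.093 by edgeR) for GABARAPL1. Without control GFP-negative replicate 3, the blocked difference was -0.96 for SQSTM1 (adjusted p = 0.015 by edgeR) and -0.57 for GABARAPL1, no longer called (adjusted p = 0.12 by edgeR). When each of the 12 libraries was left out of the blocked fit in turn, SQSTM1 stayed called in 9 cases, the exceptions being control GFP-positive replicate 2 (-0.73) and treated GFP-positive replicates 1 (-0.72) and 3 (-0.76). GABARAPL1 stayed called in 3 cases, without control GFP-positive replicate 1 (-0.75), control GFP-negative replicate 1 (-0.72) or treated GFP-positive replicate 2 (-0.60).

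The values within cultures show what the block used. The log2 ratio of GFP-positive to GFP-negative CPM of SQSTM1 was -0.18, 0.27 and -0.13 in the 3 control cultures and -0.97, -0.87 and -0.91 in the 3 treated cultures. For GABARAPL1 the ratios were 1.05, 1.22 and 1.41 in control and 0.56, 0.46 and 0.69 in treated cultures. In both genes every treated culture lay below every control culture. TAX1BP1 and NBR1 showed the same, and the share of all genes that did so was not counted. For MAP1LC3B the ratios overlapped, at 0.60, 0.82 and 0.97 in control and 0.47, 0.96 and 0.70 in treated cultures, and the difference of responses was -0.09 (95% interval -0.53 to 0.35, adjusted p = 0.87 by edgeR).

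MAP1LC3C turned the other way, from -1.16, -0.20 and -0.91 in control to 0.54, 0.87 and 0.41 in treated cultures. Its difference of responses, 1.32 (95% interval 0.01 to 2.63), was not called without the block (adjusted p = 0.29 by edgeR) or with it (1.31, adjusted p = 0.11 by edgeR). TAX1BP1 was at 0.63, 0.30 and 0.36 in control and -0.23, 0.22 and 0.07 in treated cultures, again without overlap. Its difference of -0.41 with the block was not called (adjusted p = 0.18 by edgeR), and with the GC trend removed as well it was -0.59 and called (adjusted p = 0.029 by edgeR). NBR1 was lower in every treated culture (0.47, 0.24 and 0.46) than in every control culture (0.91, 0.79 and 0.65). Its difference was not called without the block (-0.39, adjusted p = 0.35 by edgeR) or with it (-0.40, adjusted p = 0.15 by edgeR).

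**Figure D4:**
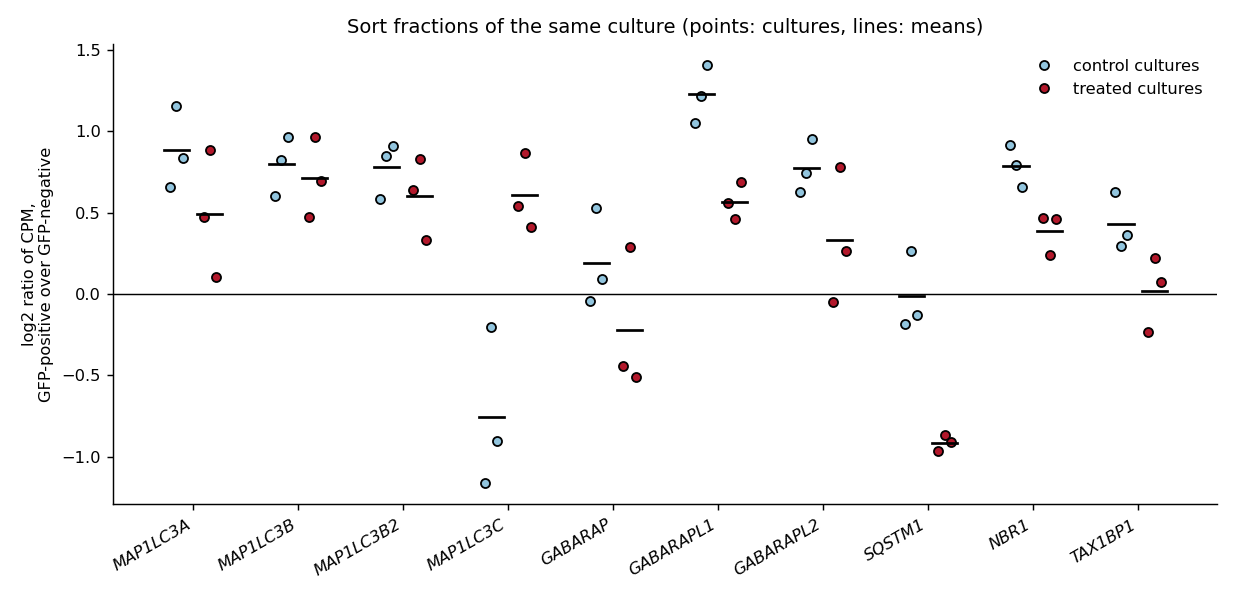
Log2 ratio of GFP-positive to GFP-negative CPM within each culture for the 10 members, with control and treated cultures side by side and a line at the mean of 3 cultures. For SQSTM1 the control cultures lie at -0.18 to 0.27 and the treated cultures at -0.97 to -0.87, and for GABARAPL1 at 1.05 to 1.41 and 0.46 to 0.69.

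Other genes of the autophagy route were taken as 8 lists of 71 genes. In GFP-positive cells 70 were tested, of which 28 were called higher (40.0%, against 26.5% of all genes) and 5 lower (7.14%, against 24.4%), with a median log2 fold change of 0.26. In GFP-negative cells 27 of 70 were called higher (38.6%, against 15.3% of all genes) and 2 lower (2.86%, against 16.2%), with a median of 0.39. Without control GFP-negative replicate 3, 30 of 71 were called higher and 2 lower, where 2776 of 15859 genes were called higher and 2760 lower. The members' own medians of 1.08 and 1.52 stood above these values. The difference between the lists and the members was not tested.

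Of 11 genes that join LC3 and GABARAP to the membrane, 4 were called higher and 1 lower in GFP-positive cells (median 0.12), and 3 of 11 were called higher in GFP-negative cells (median 0.11), where all genes stood at 26.5% and 15.3% called higher. ATG5, part of the complex that selects the membrane, rose by 1.14 on the log2 scale in GFP-positive cells (12.7 ± 2.34 to 26.6 ± 7.28 CPM, SD, n = 3, adjusted p = 2.6e-05 by edgeR). ATG3, the enzyme that transfers LC3 to the lipid, rose by 0.82 (adjusted p = 1.6e-04 by edgeR). ATG4C, one of the proteases that trim LC3 and GABARAP, rose by 1.15 (0.935 ± 0.288 to 1.97 ± 0.350 CPM, adjusted p = 0.0086 by edgeR) in GFP-positive cells and had a value of -0.28 in GFP-negative cells (adjusted p = 0.54).

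Of 18 genes of initiation and nucleation, 6 were called higher and 1 lower in GFP-positive cells, and 8 were called higher in GFP-negative cells, beside the same 26.5% and 15.3% of all genes. WIPI1, which binds the lipid of the forming membrane, changed most, from 28.0 ± 2.38 to 131 CPM (121.5 to 148 over the 3 libraries) in GFP-positive cells (log2 2.29, adjusted p = 2.7e-13 by edgeR) and from 15.6 ± 4.06 to 184 ± 25.0 CPM in GFP-negative cells (log2 3.53, adjusted p = 1.5e-05 by edgeR). The difference of the 2 responses was called for WIPI1 (-1.33, adjusted p = 0.013 by edgeR) and for its relative WDR45 (-1.31, adjusted p = 0.013 by edgeR). Without control GFP-negative replicate 3 these differences were -1.17 (adjusted p = 0.015) and -1.20 (adjusted p = 0.017). WDR45 itself was not called in GFP-positive cells (log2 0.27, adjusted p = 0.20) and rose by 1.49 in GFP-negative cells (adjusted p = 4.1e-04 by edgeR). RB1CC1, the scaffold of the initiating kinase complex, rose by 0.99 and WDR45B by 0.78 in GFP-positive cells (adjusted p = 4.3e-05 and 7.9e-05 by edgeR).

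Receptors outside the 3 members were divided by cargo. Of 6 other ubiquitin-binding or soluble receptors, 3 were called higher in GFP-positive cells (median 0.66) and 2 of 5 in GFP-negative cells, against 26.5% and 15.3% of all genes. The 3 include STBD1, which passed the filter only through the treated libraries. OPTN, a receptor of ubiquitinated cargo in which mutations cause amyotrophic lateral sclerosis, rose from 77.0 ± 2.72 to 185 ± 4.23 CPM in GFP-positive cells (log2 1.33, adjusted p = 1.0e-08 by edgeR) and by 1.41 in GFP-negative cells (adjusted p = 1.9e-04). CALCOCO2, also called NDP52, rose from 27.2 ± 1.92 to 56.9 ± 7.88 CPM in GFP-positive cells (log2 1.13, adjusted p = 1.9e-06 by edgeR) and by 1.84 in GFP-negative cells (adjusted p = 7.4e-05). STBD1, a glycogen-binding protein, stood at 0.123 ± 0.0550 CPM in control and 0.449 ± 0.0852 CPM in treated GFP-positive cells, and its call rests on that filter.

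Of 9 receptors for the endoplasmic reticulum, 3 were called higher in GFP-positive and 4 in GFP-negative cells, against 26.5% and 15.3% of all genes, and 3 in GFP-negative cells without control replicate 3. CCPG1 was by far the largest of them, at 3.49 ± 0.303 and 27.4 ± 1.30 CPM in control and treated GFP-positive cells (log2 3.04, adjusted p = 3.3e-14 by edgeR) and with a log2 fold change of 2.76 in GFP-negative cells (adjusted p = 6.7e-05). SEC62 rose by 0.96 and RTN3 by 0.41 in GFP-positive cells (adjusted p = 1.6e-05 and 0.026 by edgeR). CALCOCO1 was not called in GFP-positive cells (-0.08, adjusted p = 0.69), rose by 0.77 in GFP-negative cells (adjusted p = 0.0074 by edgeR), and had a called difference of responses (-0.94, adjusted p = 0.042, and -1.01 without control GFP-negative replicate 3). Of 6 mitophagy receptors, BNIP3L (0.96, adjusted p = 1.2e-05 by edgeR) and BNIP3 (0.76, adjusted p = 3.9e-04 by edgeR) rose in GFP-positive cells, and FKBP8 fell by 0.94 on the log2 scale (adjusted p = 1.2e-05 by edgeR), from 782 ± 143 to 388 ± 48.1 CPM. These 2 called higher and 1 lower stood against 26.5% and 24.4% of all genes. In GFP-negative cells 3 were called higher and 1 lower, against 15.3% and 16.2% of all genes.

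Of 6 partners of p62, 3 were called higher and 1 lower in GFP-positive cells, against 26.5% and 24.4% of all genes. In GFP-negative cells 2 were called higher, against 15.3% of all genes. NFE2L2, the antioxidant transcription factor that p62 can release from KEAP1, rose by 1.90 in GFP-positive cells (18.6 ± 1.93 to 66.3 ± 12.0 CPM, adjusted p = 1.4e-10 by edgeR) and by 1.54 in GFP-negative cells (adjusted p = 0.0014). TBK1, a kinase of p62 and optineurin, rose by 0.79 in GFP-positive cells (adjusted p = 0.0033 by edgeR), and PRKCZ, an atypical protein kinase C that binds p62, fell by 0.79 on the log2 scale (adjusted p = 3.2e-04 by edgeR). The transcription factors had the largest list median, with 5 of 6 tested called higher in GFP-positive cells (median 1.13) and 5 of 7 in GFP-negative cells (median 1.00), against 26.5% and 15.3% of all genes. The 5 in GFP-negative cells include MITF, which passed the filter only through the treated libraries. FOXO1, the other forkhead factor of the list, was called higher in GFP-positive cells (0.76, adjusted p = 0.044 by edgeR) and lower in GFP-negative cells (-0.82, adjusted p = 0.044 by edgeR), and was named after its values were seen. The stress factors DDIT3 (17.1 ± 3.40 to 200.3 ± 57.7 CPM, log2 3.62, adjusted p = 1.7e-16 by edgeR) and ATF4 (log2 1.87, adjusted p = 1.4e-11 by edgeR) and the forkhead factor FOXO3 (log2 1.51, adjusted p = 3.4e-08 by edgeR) rose most. Of 8 genes of autophagosome transport and fusion, 2 were called higher and 1 lower in GFP-positive cells, against 26.5% and 24.4% of all genes. These were STX17 and FYCO1 (both 1.04, adjusted p = 7.7e-05 and 0.0047 by edgeR) and, lower, TECPR1 (-0.50, adjusted p = 0.011 by edgeR). In GFP-negative cells their values were 0.57 (adjusted p = 0.11), 0.47 (adjusted p = 0.33) and 0.01 (adjusted p = 0.98).

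**Figure D5:**
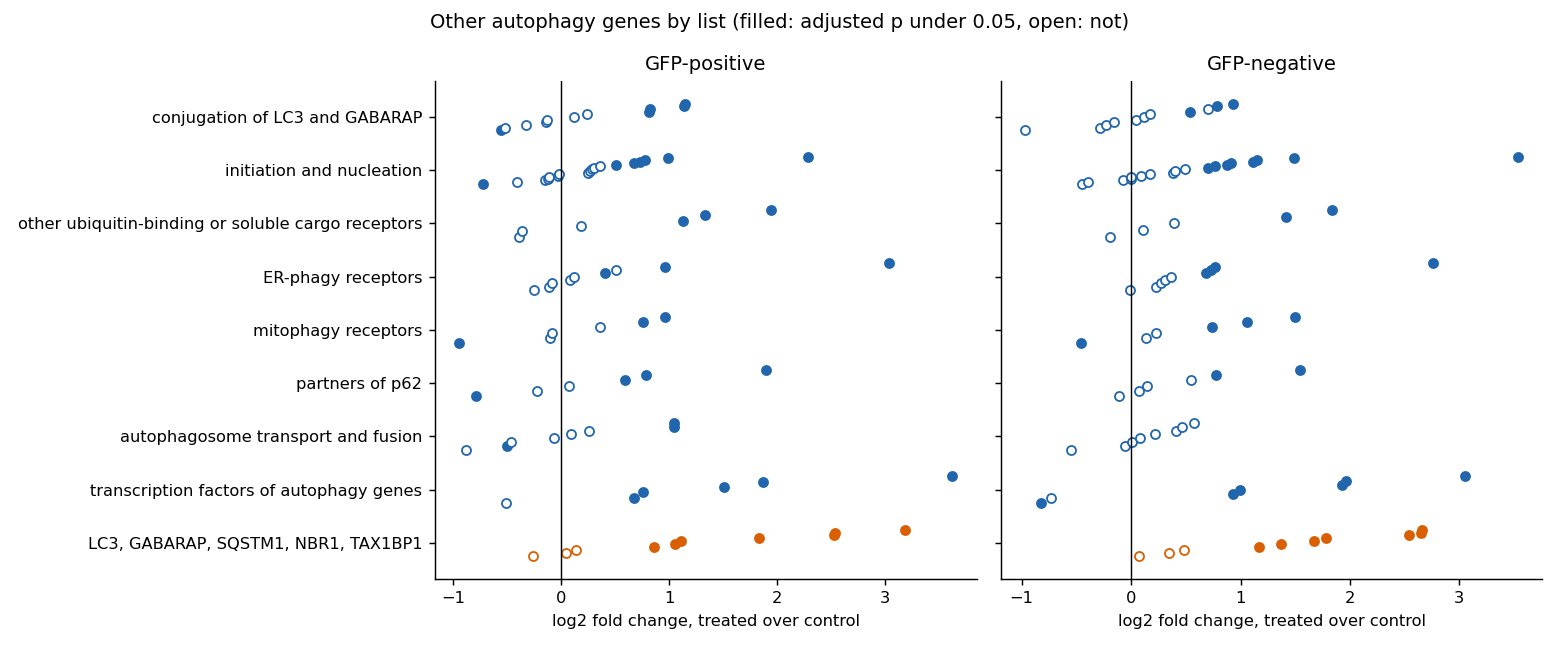
Log2 fold change of treated against control for every gene of the 8 autophagy lists and, in orange, for the members, in GFP-positive and GFP-negative cells. The members' medians are 1.08 and 1.52, and the list medians run from 0.01 for transport and fusion to 1.13 for transcription factors in GFP-positive cells.

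Promoters of the members were read for the binding motifs of factors known to act on autophagy genes, since the members did not move together. RefSeq promoters (GRCh38.p14) of 250 bases before the start were matched for 9 of 10 members. The motifs, read on both strands, were CACGTG (bound by TFEB and other E-box factors), TGATGNAA, TGACNNNGC and GTAAACA (bound by FOXO factors), which 6.34%, 3.14%, 10.9% and 2.98% of all 35116 promoters hold. Only MAP1LC3B held TGACNNNGC, the core of the antioxidant response element, and only MAP1LC3C held TGATGNAA, an element bound by ATF4 with a C/EBP partner, on the reverse strand. The other 7 members held none of the 4, GABARAPL1 and SQSTM1 among them. The promoter of MAP1LC3B (chr16:87392086-87392335, plus strand) and that of MAP1LC3C (chr1:241999099-241999348, minus strand) are shown 5′ to 3′ with the matching bases in capitals, as the members with a match and the largest changes in GFP-positive cells.
MAP1LC3B: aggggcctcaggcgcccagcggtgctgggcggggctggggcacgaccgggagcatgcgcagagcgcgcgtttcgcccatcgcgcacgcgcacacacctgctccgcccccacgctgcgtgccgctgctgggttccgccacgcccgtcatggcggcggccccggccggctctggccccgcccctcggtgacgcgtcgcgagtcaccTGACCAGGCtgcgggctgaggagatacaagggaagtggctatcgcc
MAP1LC3C: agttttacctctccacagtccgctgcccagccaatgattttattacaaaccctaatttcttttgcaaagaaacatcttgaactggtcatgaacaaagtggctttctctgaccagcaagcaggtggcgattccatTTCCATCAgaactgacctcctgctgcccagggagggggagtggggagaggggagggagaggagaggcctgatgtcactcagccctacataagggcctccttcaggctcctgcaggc
In MAP1LC3B the match lies at bases -46 to -38 from the start and in MAP1LC3C at -116 to -109. A match is a description of these letters, and binding was not measured here.

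The genes whose levels ran most like each member were found by the Pearson correlation of log2 CPM over the 12 libraries, among 13803 genes with a mean of at least 1 CPM. These values are descriptions, as the libraries fall into 4 groups and share the treatment difference. The nearest genes to MAP1LC3B were GOLGA5 (r = 0.995), DYM (0.992) and STX3 (0.992), and those to SQSTM1 were RPN1 (0.988), NAIF1 (0.987) and GMPPB (0.987). GABARAPL1 ran most like LONRF1 (0.989), LOC100288175 (0.985) and LOC653513 (0.985), NBR1 like B4GALT5 (0.988), TES (0.986) and PRKAB2 (0.981), and TAX1BP1 like COPB1 (0.988), CSNK1A1 (0.984) and TM9SF3 (0.983). The nearest to MAP1LC3C were ASB18 (0.978), ATP9B (0.964) and TIMM44 (0.962). Members that were not called with treatment had other neighbours: ASPHD1 (0.973), DUSP26 (0.973) and MRNIP (0.965) for MAP1LC3A, ATP6V1H (0.970), ACTR10 (0.968) and DCTN6 (0.951) for GABARAPL2, and ATP6V1F (0.927), FIBP (0.923) and MYL6B (0.921) for GABARAP. ATP6V1H and ATP6V1F encode subunits of the proton pump that acidifies lysosomes. The nearest to MAP1LC3B2 were SLC39A9 (0.990), MAGEH1 (0.990) and LURAP1L (0.987). MAP1LC3B and MAP1LC3B2, which can share reads, correlated at 0.986 with each other.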

How the data were processed

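RNA of 12 libraries was sequenced as single-end, reverse-strand reads of 100 bases on an Illumina instrument. The authors concatenated lanes, checked reads with FASTQC and mapped them to hg38 with HISAT2 and the Ensembl GRCh38 annotation. The submitters' processing notes name featureCounts, and its strand setting is not given in the sources used here. The deposited values are whole-number counts per gene symbol, used as raw counts, with 0 sample columns unused. Of 28278 symbols, 5688 had no counts and 25482 (90.1%) matched GENCODE 44.

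Counts were scaled by TMM, filtered with filterByExpr (minimum count 10, total 15) and tested with edgeR 4.0.16 in R 4.3.3 over all genes. Only the groups compared entered each fit, and all 4 groups entered the test of the difference of responses. CPM used TMM factors over 12 libraries. The sample titles give only a replicate number, and sort fractions with the same number were taken as sorted from the same culture. After subtracting each group's mean, log expression over 13368 genes correlated at 0.45, 0.16 and 0.48 between same-numbered control libraries. Same-numbered treated libraries correlated at 0.20, 0.28 and 0.55. Differently numbered libraries correlated at -0.50 to 0.28, and treated GFP-positive replicate 1 correlated more with GFP-negative replicate 2 (0.28) than with its own number. P-values measure the spread between thaws. Depth was 23414935 to 38347050 counts (median 31553596), and it limits rows with few counts, such as MAP1LC3C, most. The fits were tested on simulated data. Every member is named. From each autophagy list the 3 called genes with the largest GFP-positive change, and those with a called difference of responses, are named. For each member the 3 genes of highest correlation are named. The members and lists were chosen with earlier results of these data known. Alternatives were DESeq2 1.42.0, other scalings and filters, GC removal, a test against 1.5-fold, blocks, summed rows and leaving out each library.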

Additional observations from a re-analysis of the deposited data

Results flagged for a closer look

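The test of a difference in response between GFP-positive and GFP-negative cells called 2 of 10 members when made within cultures. With this culture block 7.79% of all genes were called. The block takes sort fractions with the same replicate number as sorted from the same culture. The difference of log2 fold changes, GFP-positive minus GFP-negative, was -0.90 for SQSTM1 (adjusted p = 0.0070 by edgeR) and -0.66 for GABARAPL1 (adjusted p = 0.032 by edgeR). In 3 of 3 treated cultures the GFP-positive to GFP-negative ratio of either gene lay below its value in all 3 control cultures. The same held for TAX1BP1 and NBR1, which the blocked fit did not call. The share of all genes with this pattern was not counted. With the block and each library left out in turn, SQSTM1 stayed past the threshold in 9 of 12 cases and GABARAPL1 in 3 of 12. Without the culture block neither passed the threshold, at 0.11 and 0.093.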

How the results depend on the processing

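The 7 genes that rose were called in both fractions under every alternative that tested them, except MAP1LC3C in GFP-negative cells without treated replicate 1. In the control sort comparison MAP1LC3A and MAP1LC3B2 kept their call in 3 of 6 fits that left out a library. With at least 10 counts required in every library, MAP1LC3C was not tested. A test against a change of 1.5-fold left 1 of 6 members called in the control sort comparison and 0 of 6 in the treated one. By that test 3099 of 15404 genes were called in the control and 3416 of 15416 in the treated sort comparison. Leaving out a library moved the treated sort comparison over 3 to 6 members called and 0 to 1 DEGs (SQSTM1, without treated GFP-positive replicate 3 or GFP-negative replicate 2), and the difference of responses over 0 to 1 (GABARAPL1, without control GFP-negative replicate 1). Against 0 in the main fit, the difference of responses called 1 member by DESeq2, 1 with the GC trend removed, 2 with the culture as replicate block and 3 with both (TAX1BP1 the third), and 0 to 4 with the block and a library left out, a choice made after seeing the data. Over all genes these were 355, 789, 497, 1264 and 1293 calls. A block of treated with control libraries by number, which correlated at -0.08 to 0.25 and share only a number, left the member calls as they were and gave 8220 calls in place of 7809 in GFP-positive and 4430 in place of 4887 in GFP-negative cells.

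The sign turned for values near 0, none of them called. In GFP-positive cells MAP1LC3A was -0.026 in a fit of all 12 libraries and -0.13 to 0.13 with a library left out, and GABARAPL2 was -0.091 with the GC trend removed. In GFP-negative cells GABARAP was -0.061 to 0.20 with a library left out. In the control sort comparison GABARAP was -0.0040 to 0.21 with a library left out, and SQSTM1 was 0.013 with GC removal and 0.011 with GC removal and the block. TAX1BP1 in the treated sort comparison was -0.29 with GC removal, alone or with the block, and -0.12 to 0.14 with a library left out. The difference of responses of MAP1LC3B was 0.16 under library size alone, 0.070 with at least 10 counts in every library, and -0.20 to 0.12 with a library left out (-0.21 to 0.19 with the block, including 0.066, 0.032 and 9.7e-05). That of MAP1LC3B2 was 0.062 under library size alone, and -0.33 to 0.054 with a library left out (up to 0.10 with the block). Library size alone moved the median difference of all genes from -0.05 to 0.20. The causes were not tested. Of 981 gene values under alternatives, 886 kept direction and side of the threshold, 32 lost the call, 37 gained it and 26 turned in sign. Depth limits MAP1LC3C most, with 6 to 28 counts per control library.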
